A study of Mus musculus with 3 samples.

Results

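A set of 136 broad H3K4me3 domains was present in mouse granulosa cells before and after the ovulatory stimulus. H3K4me3 is histone H3 trimethylated on lysine 4, and it was mapped by chromatin immunoprecipitation followed by sequencing. The domains were built by pooling the peak lists of 3 times over the autosomes and chromosome X and merging peaks no more than 1 kb apart. A domain was kept when it held at least 1 peak at each time and its merged span was 3000 bp or more. Of 14778 merged domains, 10822 were present at all times and 136 of these were broad, 0.920% of all domains (95% Clopper-Pearson interval 0.773% to 1.09%, counting error only). No domain of 3000 bp or more was missing from a library. The values that chose the domains were the positions of the peaks, so spans, covered bp and peak counts below describe the domains and were not tested.

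The cells came from wild type C57BL/6 female mice of postnatal day 21 to 28. All mice received 4 IU of equine chorionic gonadotropin (eCG), which drives follicles to grow. The 0 h cells were taken at that stage, and the 4 h and 12 h cells after a further 5 IU of human chorionic gonadotropin (hCG), which acts on the luteinizing hormone (LH) receptor and triggers ovulation. Granulosa cells were collected by puncturing follicles, and 1 library was made per time, so no difference between times has a replicate check. How many mice each library drew on is not stated in the sources. The peak lists, which carry no read depth, had 22208 (0 h), 23619 (4 h) and 20644 (12 h) entries on these chromosomes. Sequencing used lane 5 for 12 h and lane 4 for 0 h and 4 h, and a tag in the peak names, nolambda, is missing at 12 h. The part of these differences in the results was not tested.

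H3K4me3 marks the nucleosomes that flank the starts of active and poised genes, and the SET1 and MLL family enzymes write it. At most active genes it forms a narrow pair of peaks around a gap at the start, where nucleosomes are displaced. At a small number of genes it spreads far into the transcribed region. Such broad domains are known in many cell types at genes of cell identity, at tumour suppressor genes and at genes with highly active promoters. In granulosa cells the LH signal passes through cyclic AMP and ERK kinases, switches on immediate early genes, ends the growth programme of the follicle and starts luteinization.

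Sequences are shown for the items on which the account below turns. The first is the microRNA miR-21, which is known to be induced by LH in granulosa cells and whose hairpin gene, Mir21a, lies under a domain that covered 713 bp at 0 h and 2756 bp at 4 h. Both mature arms are given from RefSeq (GRCm38.p6, the mm10 build of the peak lists), 5′ to 3′, with the seed, bases 2 to 8, in capitals. The seeds of the arms differ.

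miR-21a-5p, chr11:86584120-86584141, - strand: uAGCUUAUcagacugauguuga

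miR-21a-3p, chr11:86584082-86584103, - strand: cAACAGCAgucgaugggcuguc

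The next are the 250 bases before the start of 3 genes under domains with nearly constant coverage. They are Tob2, an antiproliferative factor of the BTG and Tob family, Jun, a subunit of the AP-1 transcription factor, and Pparg, a lipid-sensing nuclear receptor. CG dinucleotides are in capitals to show their density, 16 in Tob2, 15 in Jun and 12 in Pparg.

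Tob2 promoter, chr15:81858327-81858576, - strand: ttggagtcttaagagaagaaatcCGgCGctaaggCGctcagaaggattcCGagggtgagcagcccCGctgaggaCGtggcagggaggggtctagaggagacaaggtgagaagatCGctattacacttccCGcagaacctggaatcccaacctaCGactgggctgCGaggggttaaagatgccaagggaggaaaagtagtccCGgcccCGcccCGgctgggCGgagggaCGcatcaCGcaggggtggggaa

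Jun promoter, chr4:95052223-95052472, - strand: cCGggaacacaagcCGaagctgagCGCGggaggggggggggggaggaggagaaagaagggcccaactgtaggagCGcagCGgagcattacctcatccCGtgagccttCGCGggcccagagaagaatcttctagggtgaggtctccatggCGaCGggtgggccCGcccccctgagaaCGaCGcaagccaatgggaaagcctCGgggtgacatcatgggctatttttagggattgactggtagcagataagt

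Pparg promoter, chr6:115362099-115362348, + strand: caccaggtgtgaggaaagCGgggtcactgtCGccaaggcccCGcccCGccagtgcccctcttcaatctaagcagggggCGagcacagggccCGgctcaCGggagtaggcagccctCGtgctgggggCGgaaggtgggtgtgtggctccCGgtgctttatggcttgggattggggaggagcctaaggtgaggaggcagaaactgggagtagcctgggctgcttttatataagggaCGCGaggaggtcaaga

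The Jun and Pparg windows fell almost wholly in the gap between peaks, and the Tob2 window did so at 0 h and 4 h but not at 12 h. The Jun window had 0 bp under a peak at each time. The Pparg window had 2 bp at 0 h and 0 bp later. The Tob2 window had 0 bp at 0 h and 4 h and 151 bp at 12 h.

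The median span of the broad domains was 3255 bp and the range 3005 to 5500 bp, against a median of 1228.5 bp over the 10686 narrower domains present at all times. The rule cuts a continuous tail, since 1307 domains spanned 2000 to 2999 bp. Just inside the threshold were LOC108167694 with 3005 bp, Ankrd11 with 3007 bp and Gadd45b with 3009 bp. Just outside were Fam110c with 2998 bp, and Mgst1 and a domain inside Irf2bp2 with 2988 bp each. Covered bp at 0 h, 4 h and 12 h were 941, 1754 and 1118 in Ankrd11 and 846, 2609 and 1716 in Fam110c, so the domain outside the threshold was the more covered of these at 4 h and 12 h.

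**Figure D1:**
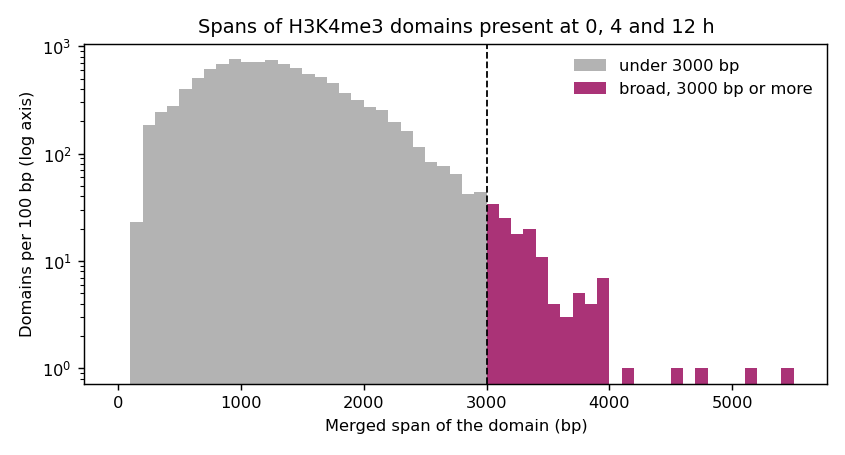
Histogram of merged spans of the 10822 domains present at 0, 4 and 12 h, in steps of 100 bp with domain counts on a log axis; the dashed line is the 3000 bp threshold. The 136 broad domains are the end of a continuous tail, and 5 of them reached 4000 bp.

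Most broad domains sat at gene starts, as did most narrower domains present at all times. A protein-coding gene started inside 88 of the 136 and within 1 kb of another 21, which makes 109 (80.1%, interval 72.4% to 86.5%). Of the 88, 69 held a start of known strand, and 19 count by an end of a gene whose strand is not in the table used. The share with a start inside or within 1 kb was 91.7% among domains of 2000 to 2999 bp. It was 84.8% among all domains present at all times. Another 11 lay elsewhere in a gene and 16 outside protein-coding genes. A start of a long noncoding RNA lay inside 20 (14.7%, against 6.63% of all domains present at all times). In 11 domains (8.09%) 2 genes started, while 7.46% of all domains present at all times held 2 or more. In 10 of the 11 the genes were on opposite strands, among them Hnrnpa2b1 with Cbx3, Srsf2 with Mfsd11 and Hnrnpdl with Enoph1. No broad domain held the starts of more than 2 genes. Ddx3x had the only broad domain on chromosome X.

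Few domains were an unbroken block. Each held a median of 3 peaks at 0 h and 4 peaks at 4 h and at 12 h. The widest peak of a domain had a median width of 588 bp at 0 h, 742.5 bp at 4 h and 632.5 bp at 12 h. A single peak of 1500 bp or more was present in 5 domains at 0 h, 14 at 4 h and 5 at 12 h. The distance from the first to the last peak reached 3000 bp in 35 domains at 0 h, 65 at 4 h and 39 at 12 h, in 16 domains at all times and in 47 at no single time. The breadth of those 47 therefore rests on pooling peaks of different times.

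Median coverage of the 136 domains was highest at 4 h. The bp covered by peaks per domain had a median of 1235.5 at 0 h (order-statistic interval over domains 1143 to 1387), 1663.5 at 4 h (1566 to 1754) and 1400.5 at 12 h (1301 to 1514). These were 37.5%, 51.0% and 42.0% of the span. In domains of 2000 to 2999 bp the shares were 50.6%, 60.1% and 53.1%, so the broad domains were more sparsely filled at each time. The most covered time was 4 h in 72 domains (52.9%), 12 h in 35 and 0 h in 29. The share for 4 h was 54.3% in domains of 2000 to 2999 bp and 44.5% in all domains present at all times. The least covered time was 0 h in 71 (52.2%, against 40.1% of all domains present at all times), 12 h in 44 and 4 h in 19. In sum the broad domains held 178 kb of peaks at 0 h, 223 kb at 4 h and 196 kb at 12 h, but the whole lists also differed, at 8.87, 10.1 and 8.92 Mb. As a share of its list the broad domains held 2.0% at 0 h, 2.2% at 4 h and 2.2% at 12 h. The order of times turned in the 16 domains that reached 3000 bp in each library, where the medians were 1661.5, 1673.5 and 1694.5 bp and the shares of the span 46.6%, 45.5% and 47.8%.

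The bp covered at all 3 times were fewer. Their median was 688.5 bp, or 31.9% of the bp covered at any time, against 43.2% in domains of 2000 to 2999 bp. In 8 broad domains (5.88%) no bp was covered at all times. The share was 4.79% of all domains present at all times and 3.37% of those of 2000 to 2999 bp. The 8 were Dusp6, Zfp217, Zswim6, Kcng3, Zeb2, Alcam, Rnf180 and a domain at the noncoding gene Gm52290. They count as present at all times because peaks of different times lay within 1 kb of each other.

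Changes of coverage were measured as the log2 ratio of covered bp between times minus its median over all 10822 domains present at all times, and a domain was called broader or narrower at 1.5-fold. That median was 0.11 from 0 h to 4 h, -0.12 from 4 h to 12 h and 0 from 0 h to 12 h. From 0 h to 4 h, 34 of 136 broad domains were broader (25%, interval 18.0% to 33.1%), against 13.9% of all domains present at all times. Another 10 were narrower (7.35%), against 10.7%. From 4 h to 12 h, 9 were broader (6.62%, against 9.83%) and 20 narrower (14.7%, against 13.1%), shares near the background. With ratios centred on the total covered bp of each list, those counts were 12 and 14. The shares of all domains under that centring are not given here, so the 2 counts have no background beside them. From 0 h to 12 h, 29 were broader (21.3%, against 14.0%) and 16 narrower (11.8%, against 13.8%). The comparisons share libraries, and 71 domains (52.2%) were under 1.5-fold in all of them, against 56.4% of all domains present at all times. Domains of 2000 to 2999 bp gave 16.4% broader and 6.20% narrower from 0 h to 4 h. The span rule pooled these same peaks, so the shares describe the chosen domains and support nothing beyond them.

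**Figure D2:**
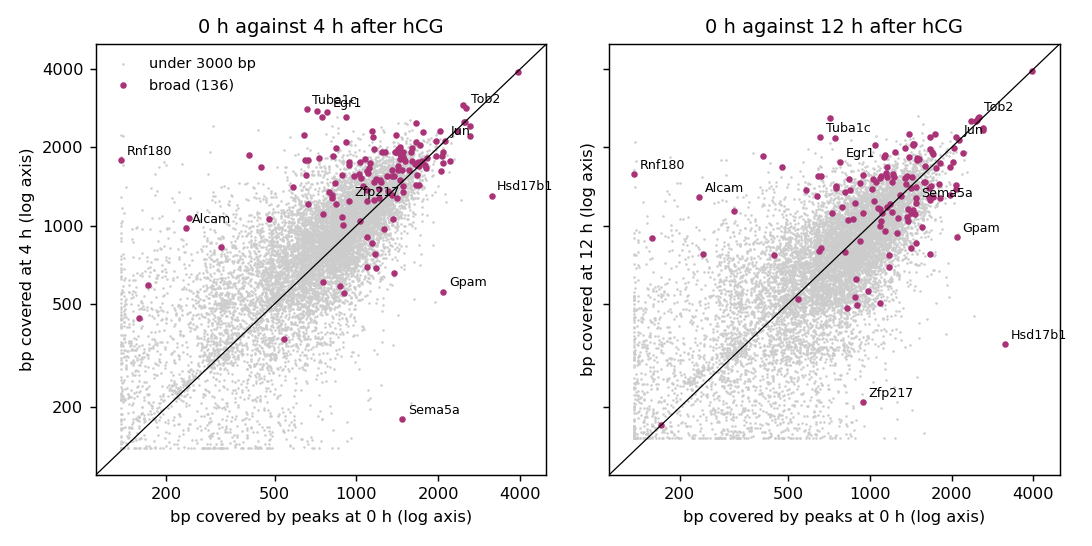
Bp covered by peaks in each domain at 0 h (x axis) against 4 h (left) and 12 h (right), both on log axes; purple points are the 136 broad domains, grey points the narrower domains present at all times, and the line marks equal coverage. More broad domains lie above the line than below it at 4 h, with Rnf180 far above and Sema5a, Gpam and Hsd17b1 far below.

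The gain at 4 h lay downstream of the gene start. Of the broad domains, 86 had a start whose strand was known inside or within 1 kb. Upstream of the start the median was 298.5 bp at 0 h, 158.5 bp at 4 h and 217 bp at 12 h. Downstream it was 843.5 bp (interval 643 to 1101), 1398.5 bp (1077 to 1604) and 1147 bp (879 to 1287). From 0 h to 4 h, downstream coverage was larger in 70 domains and smaller in 15, while upstream coverage was larger in 21, smaller in 43 and equal in 22. From 4 h to 12 h, downstream coverage was smaller in 64 of the 86. Domains of 2000 to 2999 bp had the same order in time downstream. In 979 of them the downstream medians were 821, 1068 and 924 bp, and 76.1% had more at 4 h than at 0 h. Their upstream medians were 266, 201 and 199 bp, lowest at 12 h, and from 0 h to 4 h upstream coverage was larger in 337 and smaller in 391. With 1 listed start per domain, the 62 broad domains left had downstream medians of 821.5, 1477.5 and 1140 bp.

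The profile around the start shows where the bp lay. At the start itself a peak covered 11.6% of the 86 domains at 0 h, 9.30% at 4 h and 10.5% at 12 h. At 500 bp downstream the shares were 47.7%, 67.4% and 55.8%. At 2000 bp downstream they were 11.6%, 38.4% and 19.8%, against 6.64%, 17.9% and 11.2% in domains of 2000 to 2999 bp. At 500 bp upstream the order was turned around, with 30.2% at 0 h, 22.1% at 4 h and 25.6% at 12 h, against 35.8%, 33.3% and 30.6% in domains of 2000 to 2999 bp.

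**Figure D3:**
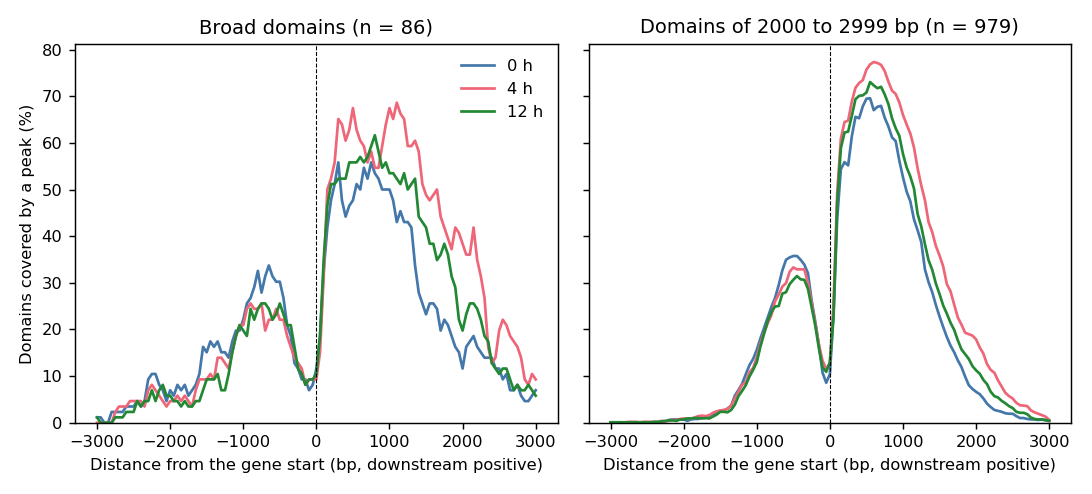
Share of domains covered by a peak at each distance from the gene start, in steps of 50 bp with downstream positive, for 86 broad domains (left) and 979 domains of 2000 to 2999 bp (right); lines are the 3 libraries. Coverage dips at the start in both sets, and from 1000 to 2000 bp downstream the 4 h line is highest and the 0 h line lowest.

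Single domains show the kinds of change behind these medians. Under Tob2 the main downstream peak ran from 109 to 1780 bp at 0 h and from 104 to 1874 bp at 4 h, and at 12 h it was split into peaks of 120 to 1143 bp and 1197 to 1828 bp. Under Dusp6, an ERK phosphatase that damps growth factor signals, all 983 bp covered at 0 h lay upstream of the start, and 1325 of 1547 bp at 4 h and all 560 bp at 12 h lay downstream. Under Tuba1c, an alpha tubulin gene, downstream coverage was 482, 2806 and 2188 bp and upstream coverage 176, 0 and 0 bp. Under Rnf180, a membrane-bound ubiquitin ligase, the only peak at 0 h was 136 bp wide and ended 778 bp upstream of the start, and all coverage at 4 h and 12 h lay downstream. The width of 136 bp is that of the narrowest peak in the 0 h list. Hs3st1, a heparan sulfate sulfotransferase, went from 4 peaks of at most 298 bp at 0 h to a single peak of 2179 bp with a smaller one at 4 h. Under Gpam, which starts glycerolipid synthesis, all peaks lay upstream, and the one nearest the start, ending 320 bp from it, was present at 0 h alone.

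**Figure D4:**
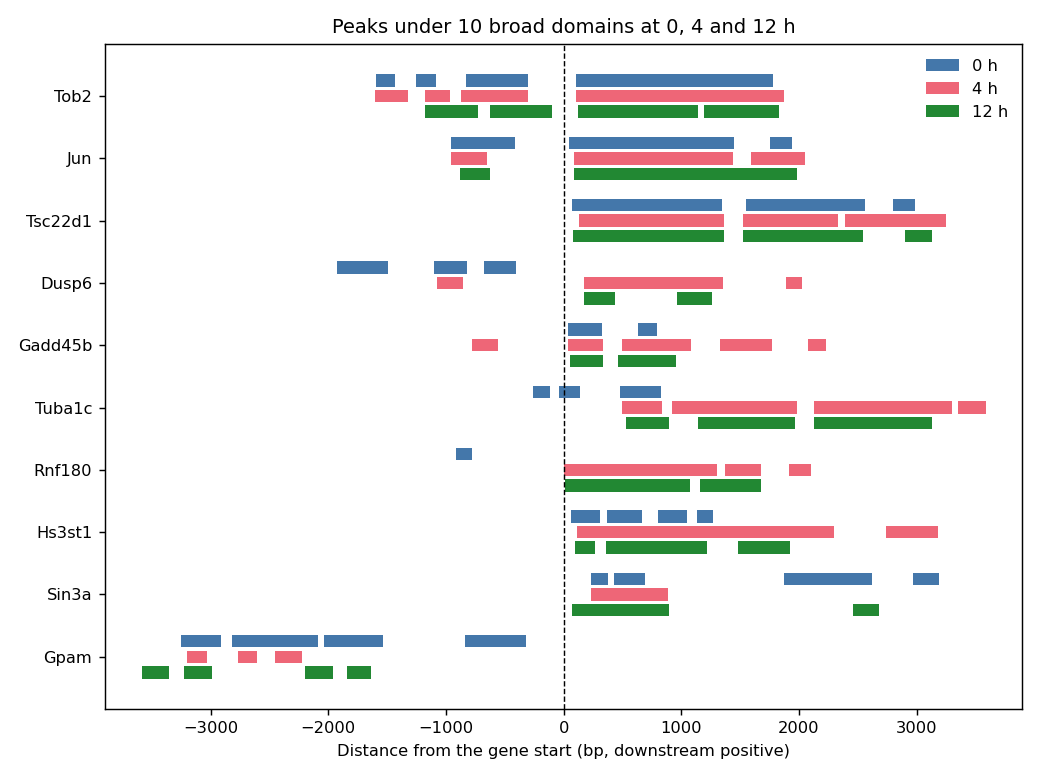
Peaks of 10 broad domains by distance from the gene start in bp (downstream positive), with a row of bars per library at 0, 4 and 12 h. Tob2, Jun and Tsc22d1 have a peak over 1000 bp wide downstream at each time, while in Dusp6 and Rnf180 the 0 h peaks lie upstream and those at 4 h mostly downstream, and in Tuba1c the 4 h peaks reach farther downstream. Rnf180 is drawn from the start inside its domain, and another listed start lies upstream of the domain.

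Immediate early genes answer growth factor and hormone signals within minutes to hours. Of the gene lists examined, theirs had the largest share of members starting inside a broad domain. Of 58 such genes, 7 started inside a broad domain (12.1%, interval 4.99% to 23.3%), against 0.458% of 21631 protein-coding genes. They were Dusp6, Egr1, Gadd45b, Jun, Myc, Nr4a3 and Tob2, of which Egr1 and Myc count by 1 gene end, with no strand in the table used. Zfp36l2, an mRNA decay factor, started within 1 kb of another. With that margin the count was 8 (13.8%), against 0.569% of all genes. The lists were chosen with earlier results of these data known, so their order is a description. With a merge gap of 500 bp the share inside was lower, as given at the end. Immediate early genes were also marked more often in general, since 47 of 58 (81.0%) had a domain of any span present at all times within 1 kb, against 47.1% of all genes. Of immediate early genes 36.2% had a domain of 2000 to 2999 bp within 1 kb, against 6.71% of all genes. The steroidogenesis list had 37.5% and the follicular growth list 33.3%, and the intervals of these lists overlap. Immediate early genes thus did not lead among those narrower domains.

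The coverage of these genes followed several courses. Tob2 covered 2525 bp at 0 h, 2828 bp at 4 h and 2625 bp at 12 h. Jun covered 2125, 2119 and 2145 bp. The levels at the 3 times were alike, and their centred ratios were within 0.14 of 0 in each comparison. Myc, a growth regulator, covered 1230, 1471 and 1544 bp, and Zfp36l2 1512, 1779 and 1797 bp, also under 1.5-fold. Egr1, a zinc finger transcription factor induced by LH, had the longest span of any domain at a protein-coding start, 4594 bp, and covered 779, 2726 and 1754 bp. Its centred log2 ratio was 1.69 from 0 h to 4 h and 1.17 from 0 h to 12 h. Gadd45b, a stress sensor, covered 446, 1686 and 770 bp, with ratios of 1.8 from 0 h to 4 h and -1.01 from 4 h to 12 h. Dusp6 covered 983, 1547 and 560 bp, with 0.54 and then -1.35. Nr4a3, an orphan nuclear receptor, covered 543, 365 and 521 bp, with -0.69 from 0 h to 4 h. Among all 8, 2 were past 1.5-fold broader and 1 narrower from 0 h to 4 h, against 13.9% and 10.7% of all domains present at all times.

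**Figure D5:**
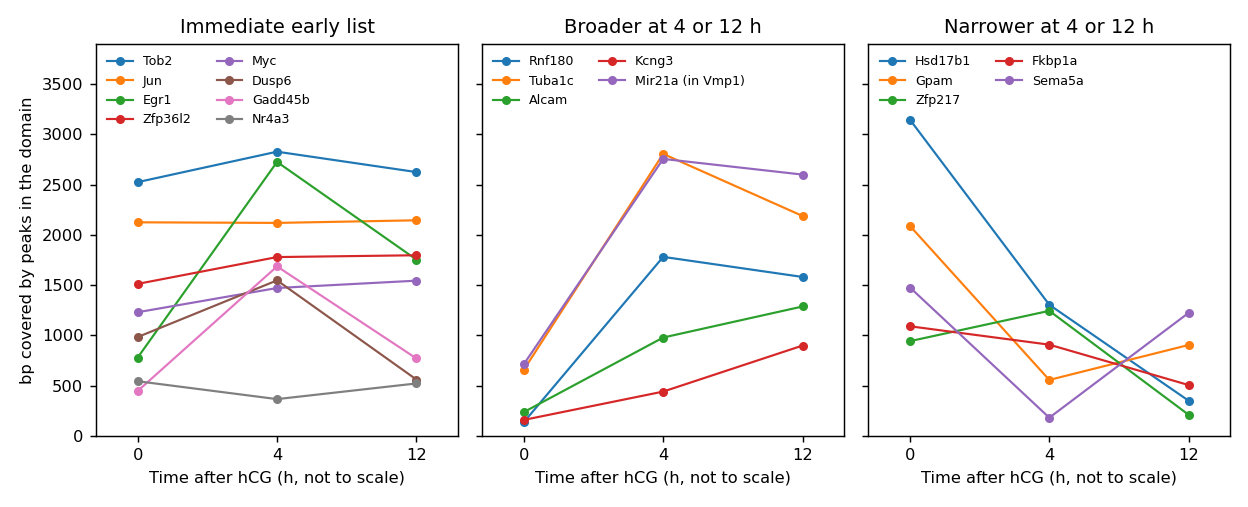
Bp covered by peaks in the domain at 0, 4 and 12 h (x axis not to scale, 1 library per point) for 8 immediate early genes (left), 5 domains that were broader at 4 or 12 h (middle) and 5 that were narrower (right). Tob2 and Jun stay level above 2000 bp, Egr1 and Gadd45b peak at 4 h, and Hsd17b1 goes from 3146 to 349 bp.

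Genes of follicle growth were represented by Hsd17b1 and Gja1. Hsd17b1 encodes the enzyme that turns estrone into estradiol in growing follicles. Its domain, chr11:101078501-101081789, spans 3289 bp, begins 533 bp inside one end of the gene and runs 601 bp past its other end. It covered 3146 bp at 0 h, 1304 bp at 4 h and 349 bp at 12 h, and the centred log2 ratios were -1.38, -1.78 and, from 0 h to 12 h, -3.17. The last was the lowest value of the 136 domains in that comparison, and 303 bp were covered at all times. Gja1, the connexin of the gap junctions between granulosa cells, started within 1 kb of a domain that covered 1398, 1917 and 1829 bp. In all, 1 of 30 follicular growth genes counted as inside a broad domain and 2 as within 1 kb. Hsd17b1 counts by 1 gene end, since its strand is not in the table used, so a start inside the domain is not established.

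The other ovarian lists held few members. Pparg was the only one of 40 LH-response genes, and its domain covered 1479, 1348 and 1403 bp, level within 1.5-fold. Of 30 transcription factors of granulosa cells none started inside a broad domain (upper limit 11.6%), and Sox4, which has an HMG box, started within 1 kb of a domain that covered 1395, 2241 and 2261 bp. Of 24 steroidogenesis genes none did (upper limit 14.2%), while 19 had a narrower domain present at all times. In a list of TGF-beta and SMAD genes Zeb2, a zinc finger repressor, was the only one of 29. It covered 171, 593 and 171 bp, with no bp common to the 3 times. Among 36 tumour suppressors Arid1b, a subunit of the SWI/SNF remodeller, covered 646, 1793 and 1549 bp. Foxp1, a forkhead factor in the same list, covered 1418, 1643 and 1398 bp. None of 25 Hippo pathway genes was under a broad domain.

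Lists of housekeeping functions differed in their counts, and most are too short for the share of 0.458% over all genes to give a member. None of 75 ribosomal protein genes started inside a broad domain (upper limit 4.80%), although 73 had a domain present at all times, and the longest of those spanned 2872 bp. The count was also 0 for 81 oxidative phosphorylation genes (4.45%) and 72 histone genes (4.99%), whose longest domains spanned 2664 and 2983 bp. Of 35 other housekeeping genes 2 were inside a broad domain (5.71%, upper limit 19.2%), Hspa8, a chaperone of the heat shock family, and the polyubiquitin gene Ubb. That share lies above those of the follicular growth (3.33%) and LH-response (2.5%) lists, and the intervals overlap. None of 39 Hox genes was.

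Markers of other cell types were checked against domains of any span. A domain of any span present at all times lay within 1 kb of 5 of 10 granulosa markers, 0 of 10 endothelial, 0 of 9 immune, 1 of 9 oocyte, 2 of 5 theca, 0 of 8 stroma and smooth muscle, 0 of 5 surface epithelium and 1 of 30 markers of unrelated lineages, against 47.1% of all genes. The share of theca markers, 40.0% (interval 5.27% to 85.3%), is thus not below that of all genes beyond its interval. Nor is that of granulosa markers, 50% (18.7% to 81.3%), above it beyond its interval. The oocyte marker was Gdf9, and its domain was also that of Uqcrq, an oxidative phosphorylation gene. Hsd17b1 was the only marker of these lists with a start or gene end inside or within 1 kb of a broad domain. The theca marker Nr2f2 had a broad domain inside the gene, 5.04 kb from its nearest start. In bulk cells a mark in a fraction of cells and a weaker mark in each cannot be told apart.

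The genes at these domains, including those described above, were grouped by their known roles after their values were seen, as a description. Of the 109 domains at gene starts, 66 fell in 9 groups and 43 in none. RNA-binding and splicing factors made up 10 domains, Hnrnpl, Hnrnpa3, Hnrnpa2b1, Hnrnpdl, Srsf2, Ptbp1, Mbnl1, Mex3b, Ddx3x and Zfp36l2. Their coverage was 919 to 2082 bp at 0 h, 1644 to 2105 bp at 4 h and 876 to 1824 bp at 12 h. The RNA helicase gene Ddx3x, with 919, 2105 and 876 bp, was broader from 0 h to 4 h and narrower from 4 h to 12 h. Mex3b, with 2082, 1920 and 1382 bp, was narrower from 0 h to 12 h at -0.59. The other 8 were under 1.5-fold in all comparisons, as were 56.4% of all domains present at all times. A ubiquitin group held 5 domains, at Ubb, Ube2h, Ube3a, Rnf180 and Trim8. Ube2h, a conjugating enzyme, was among the fullest of all with 2611, 2418 and 2376 bp, all of it downstream of the start. Apart from Rnf180, with ratios of 3.60 and 3.54 from 0 h, none of the 5 was past 1.5-fold. The same 56.4% is the background for this count.

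Regulators of chromatin held 10 domains. Kmt2c and Kmt2e covered 1819, 1815 and 1742 bp and 1651, 1439 and 1397 bp, level over time. Sin3a, a corepressor scaffold, covered 1379, 656 and 1038 bp, and Phf13, a PHD-finger protein, 1174, 776 and 772 bp. The others, besides Arid1b and Ankrd11, were Phf21a, Ino80d, Yy1 and Ubn2, all under 1.5-fold in all comparisons except Phf21a, at 0.65 from 0 h to 4 h. The MYC network held 4 domains, Myc, Mycn, its antagonist Mxi1 and Sin3a. Mycn covered 1707, 2046 and 1885 bp and Mxi1 2349, 2309 and 2523 bp, both level.

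Genes of stress responses and signal feedback formed a group of 8 whose median was 938 bp at 0 h, 1660.5 bp at 4 h and 1366 bp at 12 h. In 6 of the 8 the most covered time was 4 h, against 44.5% of all domains present at all times. Cited2, a transcriptional coregulator, covered 839, 1998 and 1515 bp, with a ratio of 1.14. Rgs2, which limits G protein signals, covered 1660, 2474 and 1970 bp. Nab2, a corepressor of EGR proteins, covered 883, 1077 and 1217 bp. Ddit4, an inhibitor of mTOR signalling, covered 1348, 1635 and 1983 bp. Trib2 and Ddit3, beside Dusp6 and Gadd45b, complete the group.

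Genes of cell contact and axon guidance held 7 domains with opposite courses. Alcam, an adhesion molecule, covered 236, 978 and 1287 bp, with a ratio of 2.45 from 0 h to 12 h. Sema5a, a semaphorin, covered 1476, 180 and 1224 bp, with -3.15 and then 2.88, the lowest and the highest value of the 136 in those comparisons. Its 4 h value rests on a single peak of 180 bp. Efna5, an ephrin ligand, covered 1415, 1279 and 821 bp, while Epha7, an ephrin receptor, stayed at 1304, 1363 and 1303 bp. Robo2, a guidance receptor, covered 652, 1566 and 797 bp, and Ptprg, a receptor phosphatase, 1241, 1923 and 1920 bp.

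Lipid and steroid enzymes and regulators held 7 domains. Gpam covered 2089, 556 and 904 bp, with ratios of -2.02 and 0.82. Lpgat1, Far1, Sgms1 and Etnk2, which act on phospholipids, fatty alcohols and sphingomyelin, covered 810 to 1126 bp at 0 h. From 0 h to 12 h, Lpgat1 and Sgms1 were past 1.5-fold broader at 0.73 and 0.70. Far1 and Etnk2 were at 0.55 and -0.04. Of 7 domains at genes of the cytoskeleton and membrane traffic, Tuba1c had the largest change, 1.98 from 0 h to 4 h. Cltc, the clathrin heavy chain, had the longest span, 3981 bp. Actg1, a cytoplasmic actin, covered 2047, 1617 and 1993 bp, and Marcks 2206, 1770 and 1902 bp, each least covered at 4 h. Arf6, Zyx and Arhgap31 complete the group.

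A group of zinc finger and other transcription factors held 9 domains, Sox4, Zfp217, Hivep2, Zeb2, Foxp1, Zfp703, Zfp827, Zfhx4 and Ubtf. Zfp217, an oncogenic zinc finger protein, covered 942, 1244 and 209 bp, and its ratio of -2.46 from 4 h to 12 h was the lowest of the 136. The other 7 beside Zeb2 covered at least 1040 bp at each time. The 43 domains in no group had a median of 1178 bp at 0 h, 1666 bp at 4 h and 1292 bp at 12 h. They include Egr1, Jun, Nr4a3 and Tob2 of the immediate early list, so they are not a set apart from it. From 0 h to 4 h 13 were broader and 4 narrower, against 13.9% and 10.7% of all domains present at all times. The most covered time was 4 h in 28, against 44.5% of all. Tsc22d1, a leucine zipper factor induced by TGF-beta, had 2470, 2908 and 2526 bp, a larger share of its span than Tob2 at each time. Kcng3, a potassium channel subunit, covered 158, 440 and 898 bp, with 2.51 from 0 h to 12 h. Zswim6 covered 317, 825 and 1138 bp, and Fkbp1a, an immunophilin, 1090, 907 and 505 bp.

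Broad domains inside genes, away from a protein-coding start, numbered 11, and their median was 822 bp at 0 h, 1419 bp at 4 h and 1393 bp at 12 h. From 0 h to 4 h, 6 of the 11 were broader and none narrower, against 13.9% and 10.7% of all domains present at all times. One of these held Mir21a, at one end of Vmp1, an autophagy gene at chr11:86583858-86683836, and no other annotated gene. The domain, chr11:86583525-86587461, spans 3937 bp and covered 713, 2756 and 2600 bp, with ratios of 1.84 from 0 h to 4 h and 1.87 from 0 h to 12 h. The hairpin that holds the arms printed above, chr11:86584067-86584158, is 92 bp long. At 0 h no base of it was under a peak and the nearest peak was 2029 bp away. At 4 h all 92 bp were covered, and at 12 h 78 bp were. The widest peak of the domain was 386 bp at 0 h, 1379 bp at 4 h and 1941 bp at 12 h.

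Other domains inside genes moved in both directions. In Scp2, a sterol carrier gene, the domain lay 15.8 kb from the nearest start and covered 748, 2626 and 2172 bp. In Sema6a it covered 243, 1066 and 775 bp, and in Rora, a nuclear receptor gene, 477, 1063 and 1677 bp. The domain in Ephx2, an epoxide hydrolase gene, covered 822, 1847 and 483 bp, and that in Osgin2 882, 1572 and 533 bp. In Ywhaz, a phosphoserine-binding adaptor gene, it covered 1673, 1568 and 781 bp. Adgrl2, Nr2f2, Tmem267 and Cpeb2 were the others, and of these Adgrl2 alone was past 1.5-fold, at 1.32 from 4 h to 12 h and 0.89 from 0 h to 12 h.

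The longest domains held no gene. Of the 16 outside protein-coding genes, 8 overlapped no annotated gene of any kind, and the other 8 overlapped noncoding genes, among them Lncpint, a group of 3 transfer RNA genes and a pair of small nuclear RNA genes on chromosome 3. The longest, chr10:3109561-3115060, spans 5500 bp and covered 843, 1208 and 1368 bp. The domain at chr2:98662213-98667355 covered 2489, 2496 and 2560 bp, and that at chr9:3000020-3004772 covered 2502, 2502 and 2605 bp. The domain at chr14:19415710-19419658 was a single peak of 3947, 3915 and 3936 bp, the widest peak of each list. The last 3 differed by no more than 0.18 in any centred log2 ratio, and their peaks were nearly the same at all times. Within 150 kb of the first assembled base of a chromosome lay 6 of the 136 broad domains (4.41%), against 2 of 1307 (0.153%) of those of 2000 to 2999 bp. Repeat content and mappability were not used here, and their part in these domains was not tested. Without the 27 domains that have no protein-coding start within 1 kb, the medians were 1291, 1666 and 1397 bp. From 0 h to 4 h, 26 of the 109 domains left were broader and 9 narrower, against 13.9% and 10.7% of all domains present at all times.

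The promoters under the broad domains were rich in CG dinucleotides, as were those under narrower domains. RefSeq starts inside or within 1 kb gave 126 promoters of 98 genes, and the 250 bases before each start were read. The median GC content was 65.2% and the median number of CG dinucleotides 21. A promoter was called CpG-rich when its observed to expected ratio was at least 0.6 and its GC content at least 50%. This held for 75.4% of broad-domain promoters (interval 66.9% to 82.6%), 81.3% of those under domains of 2000 to 2999 bp, 41.9% of all 21045 promoters and 15.4% of those with no domain present at all times. The interval of the first includes the second. Windows of the same gene, some of which overlap, count as separate here and in the motif shares below, so these intervals are likely too narrow.

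Motifs were searched on both strands of the same 250 bases. The GC box, GGGCGG, was in 68.3% of broad-domain promoters, 70.4% of those of 2000 to 2999 bp domains and 43.1% of all promoters. The TATA box, TATAAA, was in 4.76%, 4.57% and 11.7%. The NF-Y box, CCAAT, was in 34.1%, 35.6% and 35.6%. The AP-1 site, TGACTCA, was in 6 of 126 (4.76%), 2.22% and 4.09%, and the ETS core, CGGAAG, in 19.8%, 27.1% and 17.3%. The site of NR5A receptors, TCAAGGTCA, was in 0 of 126 (upper limit 2.89%), 0.208% and 0.323%. The motifs can overlap each other, and a match describes letters, not a bound site.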

How the data were processed

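H3K4me3 chromatin immunoprecipitation was sequenced in 1 library per time, after 18 PCR cycles, per the labels' protocols. Each sample's deposited list gives the chromosome, start, end and name of peaks, with no score or depth. MACS2 2.0.9, Bowtie2 2.2.3 and CASAVA 1.8 are named, with mm10, in the submitters' processing notes. The sources used here do not give the peak threshold or say whether an input control was used.

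From these lists, peaks on the autosomes and chromosome X were pooled, merged within 1 kb and filtered on span with Python 3.11.15, pandas 2.3.3, numpy 2.4.6 and scipy 1.17.1. The merging was tested on simulated peaks. Gene starts came from RefSeq promoters (GRCm38.p6), with strand, for 17274 of 21631 protein-coding genes; for the other 4357 both gene ends were used and no side was assigned. Of 647 genes in 21 lists, 647 were found. Intervals are 95% Clopper-Pearson, or order-statistic for medians, and cover counting or spread over domains, not replicates. No test between times was possible with 1 library each.

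The domains and gene lists were chosen with earlier results of these data known. Named are the 15 longest domains, the 5 most evenly filled, the 5 highest and lowest ratios per comparison, members of the ovarian and immediate early lists, the 5 with most starts, the 5 longest with no start, and 3 on each side of the threshold. Other genes were named after their values were seen. One gene is not reported here. Alternatives were the merge gap, the span, the narrowest peaks, equal peak numbers, centring and the fold.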

Additional observations from a re-analysis of the deposited data

Results flagged for a closer look

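Peaks outside the chromosomes used were present in the lists, with no control sample to compare them with. In these cells of female mice, chromosome Y had 28 (0 h), 43 (4 h) and 25 (12 h) peaks. The mitochondrial chromosome had 5 (0 h), 3 (4 h) and 6 (12 h), and its count at 4 h is not above the limit of 3 that a count of 0 allows. None of these peaks entered a domain.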

How the results depend on the processing

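No paired analysis was possible because there was 1 library per time. The number of broad domains, 136, and of genes starting inside them, 99, depends on the rule. Merging peaks within 500 bp gave 49 domains with 30 genes, and merging within 2 kb gave 206 with 171. A span of 2000 bp or more gave 1443 with 1232, and one of 4000 bp or more gave 5 with 2. Leaving out the narrowest peaks of each list gave 83 with 60, and asking for 3000 bp in each library gave 16 with 6. Median covered bp were highest at 4 h under each of these rules except the last, where they were 1673.5 at 4 h.

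With a merge gap of 500 bp the median covered bp were 1442, 1915 and 1677 and the shares of the span 46.6%, 59.0% and 51.0%. With 2 kb they were 1108, 1497.5 and 1267.5 bp and 32.3%, 43.4% and 37.2%. With 2000 bp or more, the shares were 49.2%, 59.0% and 52.2%, and the 4 h and 12 h medians 1401 and 1239 bp. With 4000 bp or more the share at 0 h was 28.0%, and the 4 h and 12 h medians were 2496 and 1754 bp. With 3000 bp in each library the shares were 46.6%, 45.5% and 47.8%, and the 0 h and 12 h medians were 1661.5 and 1694.5 bp.

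At 2-fold in place of 1.5-fold, 16.9% were broader and 2.94% narrower from 0 h to 4 h, 2.94% and 5.88% from 4 h to 12 h, and 11.0% and 3.68% from 0 h to 12 h. The shares of all domains present at all times past 2-fold are not given here, so these have no background beside them. With 2000 bp or more 17.2% were broader from 0 h to 4 h. With 500 bp, 2.04% were broader from 4 h to 12 h. With 4000 bp or more 40.0% were broader from 0 h to 4 h and from 0 h to 12 h. For that span 0% were narrower in each comparison or broader from 4 h to 12 h. These shares rest on the few domains of that span and have no background beside them. With 3000 bp in each library 0% were broader from 0 h to 4 h, narrower from 4 h to 12 h, or changed from 0 h to 12 h. Other centring moved no share outside its interval.

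With 500 bp the immediate early share was 3.45%, and the LH response, housekeeping, TGF-beta and tumour suppressor shares were 0%. With 2000 bp or more the shares were 31.0% for immediate early, 20.8% for steroidogenesis, 16.0% for Hippo, 19.4% for tumour suppressor, 13.3% for ribosomal protein, 7.41% for oxidative phosphorylation and 16.7% for histone genes. With the narrowest peaks left out, the centred log2 ratio of the domain at chr2:181928360-181931395 from 4 h to 12 h turned from 0.97 to -0.16, and that of the one at chr10:3109561-3115060 from 0 h to 12 h turned from 0.70 to -0.32. The narrowest peaks were those under the lower quartile of width of each list. The 2 choices of start added after seeing the data left every upstream and downstream median inside its interval. Depth is unknown, so a peak too weak to be called and a true absence cannot be told apart.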
